A study of Rattus norvegicus with 4 samples.

Results

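Zinc transporters and metallothioneins were examined in INS-1 cells grown as a 2D monolayer or 3D-bioprinted in hydrogel. The 10 genes were taken by symbol from function, with earlier results of these data known. Included were the SLC30 exporters Slc30a8, Slc30a1, Slc30a5, Slc30a7 and Slc30a9, the SLC39 importers Slc39a6, Slc39a7 and Slc39a14, and the metallothioneins Mt1 and Mt2A. They were 10 of the 23360 gene symbols in the data, and all 10 symbols were found. Both groups were the INS-1 832/3 rat insulinoma line, a single insulin-secreting line that carries a human insulin gene, kept in the same supplemented RPMI-1640 medium and harvested after 5 days at passage 3. The 2D group was standard monolayer culture without hydrogel, and the 3D group was printed in GelXA LAMININK 411, a gelatin-based hydrogel with laminin that is cross-linked by light. Each group held 2 biological replicates of polyA RNA. Printing, light exposure, the hydrogel and the third dimension came together in 1 group, so they cannot be told apart here, and a tumour line without other islet cells is a limited model of the beta cell.

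Beta cells hold unusually much zinc, because insulin is stored in the secretory granule as a crystal of zinc-bound hexamers. Proteins of the SLC30 family (ZnT) move zinc out of the cytosol into organelles or across the plasma membrane, and proteins of the SLC39 family (ZIP) move it into the cytosol. Metallothioneins are small cysteine-rich proteins that bind zinc and copper, and their genes are classic targets of the zinc-sensing factor MTF1, which binds metal response elements.

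Expression was measured as TPM, a transcript abundance unit that corrects for transcript length and sums to the same total in every sample, so levels of different genes can be set side by side. Values below are TPM summed per gene and scaled between samples with factors from 0.960 to 1.02. The comparison was made with limma's moderated test on log2(scaled TPM + 1), a scale that understates the change of weakly expressed genes, over the 11960 genes with a mean of at least 1 TPM. Fold changes below come from that fit and are ratios of scaled TPM + 1. Of all genes tested, 38.0% had an adjusted p below 0.05, 18.5% with higher and 19.5% with lower values in the bioprinted cells, and the median log2 fold change was -0.003. With 2 cultures against 2, an exact two-sided permutation test of a single gene cannot go below p = 0.33, so each call leans on limma's pooling of variance over genes. Of 10 beta cell markers 9 were listed, all above 1 TPM, with summed levels of 145688 to 166841, most of it from Ins1. Of these 9 markers, Slc2a2, the glucose transporter gene, was higher in 3D (486.2 and 472.5 scaled TPM in 2D, 621.3 and 639.3 in 3D, adjusted p = 0.00746 in limma). Ins2, an insulin gene, was lower (13099 and 13894 in 2D, 8889 and 9118 in 3D, adjusted p = 0.00946 in limma), and the other 7 did not pass. Of 7 markers of other pancreatic cells, 3 were at 0 in every sample and 3 others stayed below 1 TPM. The exception was Gcg, the glucagon gene, with 41.5 and 76.9 scaled TPM in 2D and 123.2 and 151.7 in 3D (adjusted p = 0.0217 in limma). The 7 listed stromal, endothelial and blood markers summed to 0.972 to 1.47, with 3 at 0. The part of Gcg-expressing cells in the results below was not tested, and in bulk RNA fewer cells of a type and less RNA per cell cannot be told apart.

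Of the 10 genes, 9 were expressed well enough to be tested, and 3 of these 9 had an adjusted p below 0.05, against 38.0% of all genes. All 3 were higher in 3D culture: Mt1, Slc39a6 and Slc30a7. None was lower, against 19.5% of all genes. In 6 of the 9 both 3D cultures lay above both 2D cultures, which held for 37.3% of all genes. In none did both lie below, against 38.2% of all genes, and without regard to direction the groups were separate in 75.5% of all genes. In the other 3 (Slc30a8, Slc30a1 and Slc39a14) the groups overlapped. The median log2 fold change of the 9 was 0.08.

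**Figure D1:**
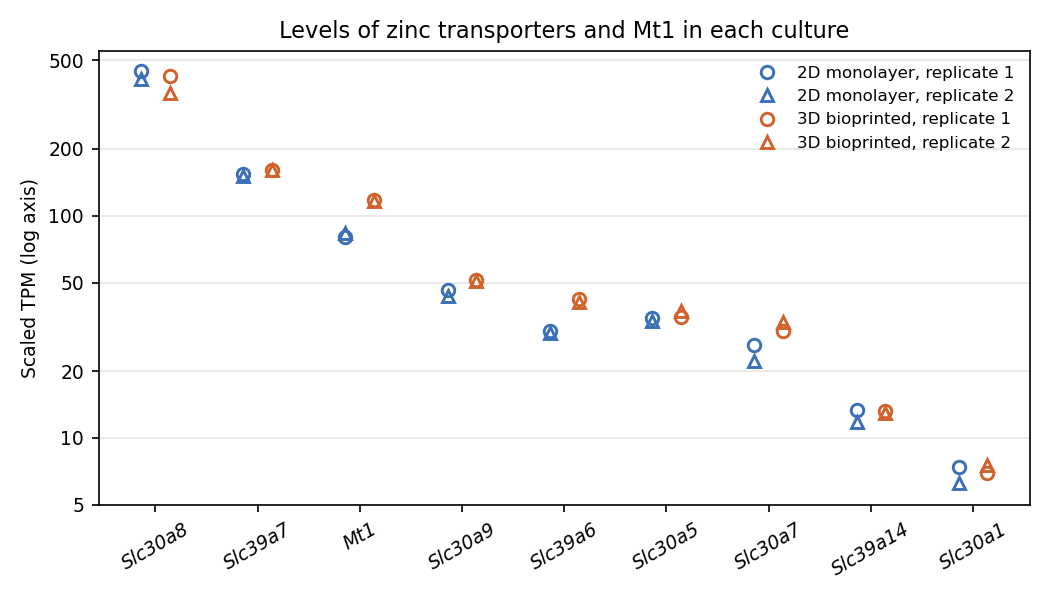
Scaled TPM on a log axis for the 9 detected genes, with 1 point per culture (blue 2D monolayer, orange 3D bioprinted; circles replicate 1, triangles replicate 2). Slc30a8 stands highest, between 356.3 and 445.9, and Slc30a1 lowest, between 6.25 and 7.57.

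The granule transporter ZnT8, encoded by Slc30a8, had the highest level of the 10 genes in both cultures. It loads zinc into insulin granules and is a hallmark of endocrine pancreas. Scaled TPM were 445.9 and 412.5 in 2D (429.2 ± 23.6, SD, n = 2) and 422.9 and 356.3 in 3D (389.6 ± 47.0, SD, n = 2). The second 3D culture was the lowest of the 4, while the first lay between the 2D cultures. The log2 fold change was -0.14 (95% interval -0.38 to 0.10, standard error 0.097, adjusted p = 0.276 in limma), so a fall or a small rise within that interval was not separable from no difference. Slc30a8 also spread more between replicates than most genes, with a residual SD of 0.135 on the log2 scale against a median of 0.0755 over all genes tested.

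After Slc30a8 the order in 2D culture was Slc39a7, Mt1, Slc30a9, Slc30a5, Slc39a6, Slc30a7, Slc39a14 and Slc30a1. In 3D culture the order was the same, except that Slc39a6 stood above Slc30a5. The ranges of neighbouring genes in the order did not overlap in either group. Slc30a8 made up 76.2% and 76.3% of the summed scaled TPM of the 10 SLC30 genes in the 2D cultures, and 73.7% and 69.9% in the 3D cultures. These sums were chosen after the values were seen and are given without a test.

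Among the exporters of the secretory pathway, Slc30a7 rose in 3D culture. Its product ZnT7 moves zinc into the Golgi apparatus. Scaled TPM were 26.3 and 22.3 in 2D (24.3 ± 2.84, SD, n = 2) and 30.3 and 33.1 in 3D (31.7 ± 1.97, SD, n = 2), with both 3D cultures above both 2D cultures. The fold change was 1.29, a log2 fold change of 0.37 (SE 0.096, 95% interval 0.13 to 0.61, adjusted p = 0.0318 in limma). This was the least stable of the 3 calls. The adjusted p was 0.0783 without 2D replicate 2, 0.114 without 3D replicate 1, 0.166 without 3D replicate 2 and 0.0852 when no expression filter was applied, all in limma.

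Slc30a5 encodes ZnT5, which pairs with ZnT6 in the early secretory pathway to supply zinc to enzymes such as alkaline phosphatase. Its scaled TPM were 34.7 and 33.7 in 2D and 35.1 and 37.1 in 3D, groups that were separate by a narrow margin. The log2 fold change of 0.08 had a standard error of 0.060 and a 95% interval from -0.07 to 0.23 (adjusted p = 0.339 in limma). Its partner Slc30a6 had 10.6 and 9.67 in 2D and 9.73 and 9.23 in 3D (log2 fold change -0.09, adjusted p = 0.422 in limma). Neither partner passed the threshold.

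Slc30a9 encodes ZnT9, a mitochondrial zinc exporter. Scaled TPM were 46.5 and 43.7 in 2D (45.1 ± 2.00, SD, n = 2) and 51.1 and 50.8 in 3D (50.9 ± 0.214, SD, n = 2). The 3D cultures were close to each other and both above the 2D cultures. The log2 fold change of 0.17 (standard error 0.059, 95% interval 0.02 to 0.32) missed the threshold over all genes, with an adjusted p of 0.0682 in limma. It passed when only genes of at least 5 TPM were tested (adjusted p = 0.0436 in limma) and without 2D replicate 1 (adjusted p = 0.0451 in limma).

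The plasma membrane exporter ZnT1, from Slc30a1, is a known MTF1 target and was the least expressed of the detected genes. Scaled TPM were 7.40 and 6.25 in 2D and 6.98 and 7.57 in 3D. The groups overlapped, and the log2 fold change was 0.08 (95% interval -0.17 to 0.34, standard error 0.103, adjusted p = 0.539 in limma). Leaving out 2D replicate 2 turned its sign, to -0.02.

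Of the 3 importers, Slc39a6 rose in 3D culture. It encodes ZIP6, a plasma membrane importer that forms heteromers with ZIP10. Scaled TPM were 30.2 and 29.7 in 2D (29.9 ± 0.357, SD, n = 2) and 42.4 and 40.9 in 3D (41.6 ± 1.09, SD, n = 2). The gap between the groups was wide beside the spread within them, and the fold change was 1.38 (log2 fold change 0.46, standard error 0.057, 95% interval 0.32 to 0.61, adjusted p = 0.00568 in limma). The call was lost in 1 of 11 alternative settings, without 3D replicate 1 (adjusted p = 0.0713 in limma). The partner gene Slc39a10 had 9.37 and 8.91 scaled TPM in 2D and 11.2 and 9.63 in 3D, a log2 fold change of 0.17 that did not pass (adjusted p = 0.198 in limma).

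Slc39a7 encodes ZIP7, which releases zinc from the endoplasmic reticulum into the cytosol, and it was the most abundant importer. Scaled TPM were 154.7 and 151.1 in 2D and 160.1 and 160.0 in 3D. Although the groups were separate, the log2 fold change was 0.07 (95% interval -0.06 to 0.19, standard error 0.051, adjusted p = 0.340 in limma). It made up 53.7% and 53.1% of the summed scaled TPM of the 14 SLC39 genes in 2D and 50.8% and 51.1% in 3D.

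Slc39a14 encodes ZIP14, which carries iron and manganese as well as zinc. Scaled TPM were 13.3 and 11.8 in 2D and 13.2 and 12.9 in 3D. Both 3D values lay between the 2D values, and the log2 fold change was 0.05 (95% interval -0.15 to 0.26, standard error 0.082, adjusted p = 0.626 in limma). Without 2D replicate 2 it was -0.03.

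**Figure D2:**
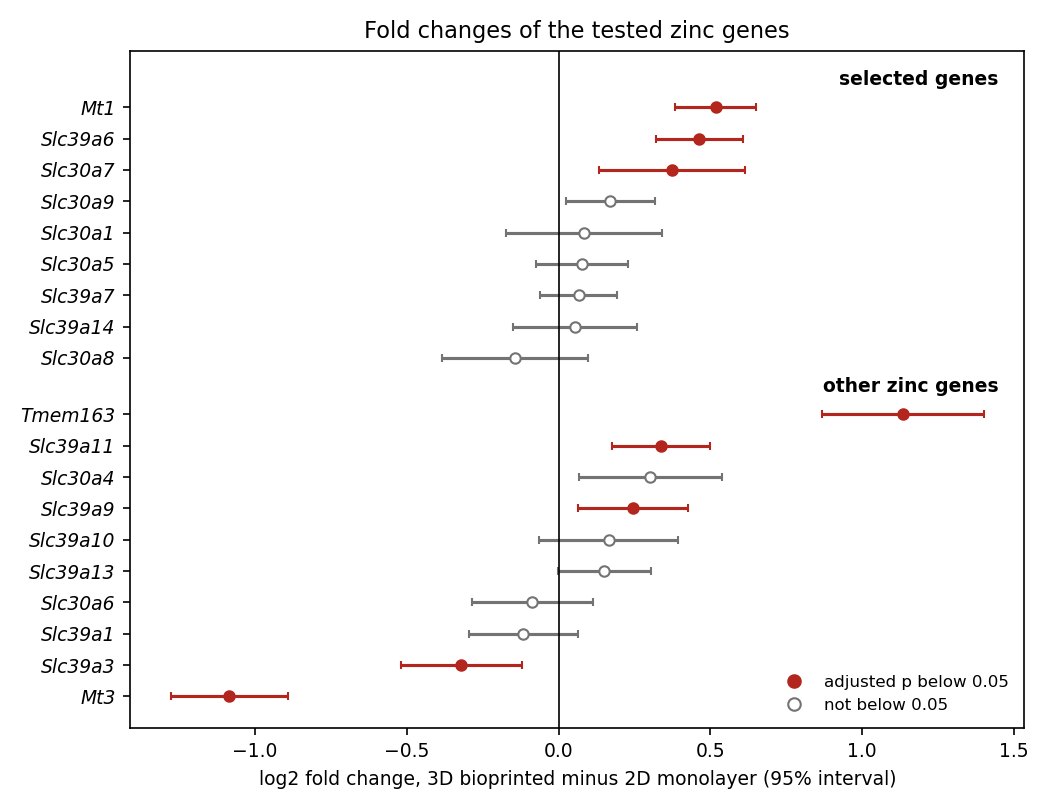
Log2 fold change of 3D over 2D for the 9 tested genes (top) and 10 further tested zinc genes (bottom), with 95% intervals from limma. Red points have an adjusted p below 0.05; Mt1, Slc39a6 and Slc30a7 lie to the right of 0 in the upper group, and Tmem163 at 1.13 and Mt3 at -1.08 stand farthest from 0.

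Some of these genes were quantified as several transcripts, and those with at least 2 transcripts above 1 TPM were followed separately, without a test. Groups were separate in 75.5% of all genes tested, and the share over all transcripts was not computed. Slc30a8 had a pair of transcripts. ENSRNOT00000006410.6 had 269.7 and 246.7 scaled TPM in 2D and 269.5 and 228.1 in 3D, and ENSRNOT00000079792.1 had 176.2 and 165.8 in 2D and 153.3 and 128.2 in 3D. The first thus overlapped between groups and the second did not, and the share of the first in the gene was 60.5% and 59.8% in 2D and 63.7% and 64.0% in 3D. For Slc39a6, ENSRNOT00000036306.4 had 15.7 and 13.0 in 2D and 22.2 and 24.0 in 3D, without overlap. ENSRNOT00000079381.1 of the same gene had 14.5 and 16.7 in 2D and 20.2 and 16.9 in 3D, also without overlap. The margin was narrow, as the second 3D culture was close to the second 2D culture. The main transcript of Slc39a7, ENSRNOT00000077357.1, had 129.8 and 128.1 in 2D and 124.0 and 129.9 in 3D, which overlap. Its second transcript, ENSRNOT00000089622.1, had 20.8 and 21.3 in 2D and 31.5 and 25.0 in 3D, which do not. ENSRNOT00000083873.1, the third transcript of Slc39a7, had low levels of 3.81 and 1.17 in 2D and 4.55 and 5.10 in 3D, without overlap. Short single-end reads shared by transcripts of a gene are divided by estimation, so these shares are less certain than the gene sums.

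**Figure D3:**
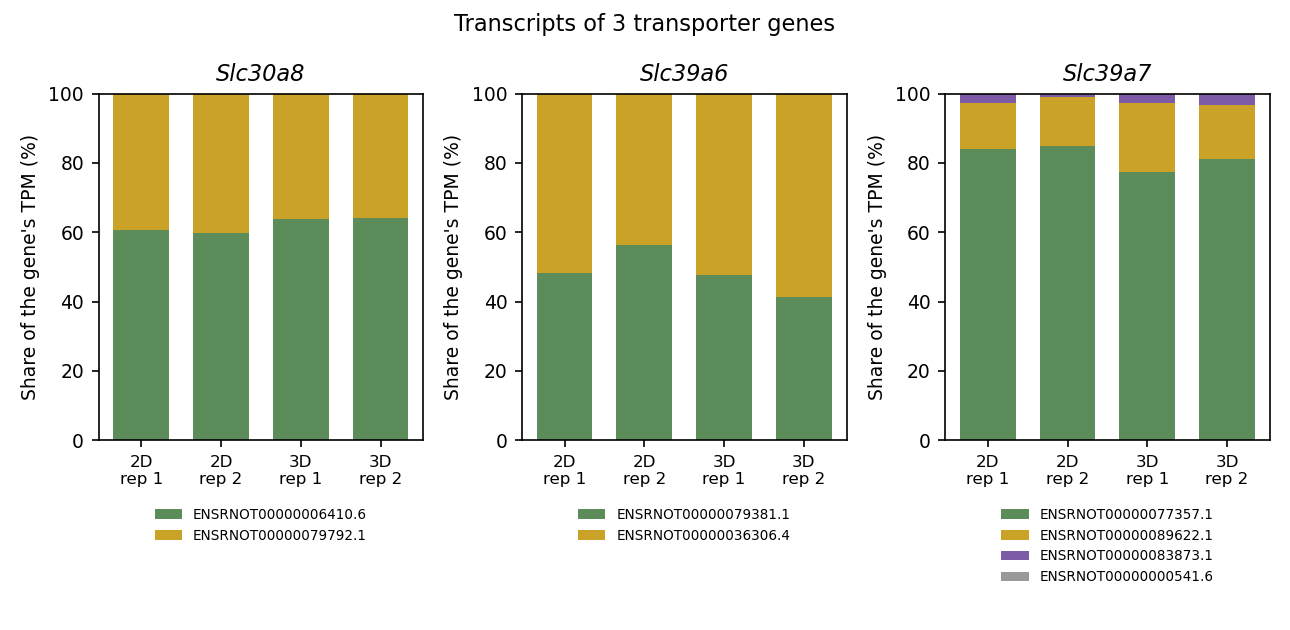
Share of each gene's scaled TPM (%) taken by its transcripts in the 4 cultures. The larger Slc30a8 transcript (bottom, green) takes 59.8% to 60.5% in 2D and 63.7% to 64.0% in 3D, while the shares for Slc39a6 (bottom transcript 41.3% to 56.2%) differ within groups.

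Mt1 had the largest fold change of the tested genes in the set. Metallothionein 1 buffers cytosolic zinc, and its gene is known to be inducible by zinc and by glucocorticoids. Scaled TPM were 80.3 and 83.3 in 2D (81.8 ± 2.13, SD, n = 2) and 118.1 and 116.9 in 3D (117.5 ± 0.827, SD, n = 2). The cultures of each group were nearly equal, and the 3D values were 1.43-fold higher (log2 fold change 0.52, standard error 0.053, 95% interval 0.39 to 0.65, adjusted p = 0.00445 in limma). Of all genes tested, 13.5% had a larger absolute log2 fold change. Without 3D replicate 1 the adjusted p was 0.0603 in limma, with a log2 fold change of 0.51, and the call held in the other 10 settings.

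Mt2A, the second common metallothionein, was listed at 0 in all 4 cultures from a single transcript, and no fold change is given. The coding sequences of metallothioneins are alike, and how the authors' quantification divided reads between Mt1 and Mt2A was not tested, so the 0 of Mt2A and the level of Mt1 are uncertain in that respect.

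Mt3, a metallothionein best known from neurons, is not in the set but changed most among its relatives. It fell from 98.0 and 108.6 scaled TPM in 2D (103.3 ± 7.51, SD, n = 2) to 50.2 and 46.1 in 3D (48.2 ± 2.94, SD, n = 2). The log2 fold change stood at -1.08, with a standard error of 0.077 (adjusted p = 0.00348 in limma), and the call held in all 11 alternative settings. Mt1 and Mt3 together had 178.3 and 191.9 in 2D and 168.3 and 163.0 in 3D, while the share of Mt1 in that sum went from 45.0% and 43.4% to 70.2% and 71.7%. This sum and share were chosen after the values were seen. Mt4 and Mt1m were listed at 0 throughout. Mtf1 was listed at 1.02 TPM as deposited in 2D replicate 1 and at 0 in the other 3 cultures, too low to test.

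**Figure D4:**
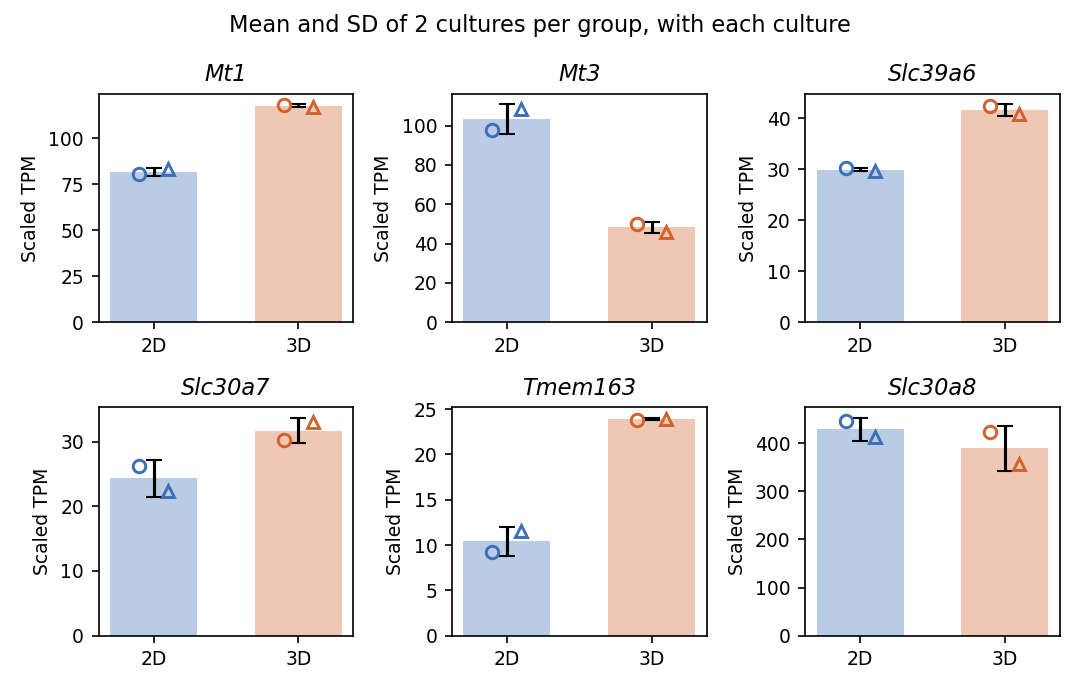
Scaled TPM of 6 zinc genes, with bars for the mean and error bars for the SD of 2 cultures per group, and a point for each culture (circles replicate 1, triangles replicate 2). Mt1, Slc39a6, Slc30a7 and Tmem163 are higher in 3D and Mt3 is lower, without overlap, while the Slc30a8 points overlap. All but Slc30a8 had passed the threshold on these same values, and groups were separate in 75.5% of all genes tested.

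The sequences before the metallothionein genes are shown because metal response elements lie there and because Mt1 and Mt3 moved apart. In the RefSeq GRCr8 annotation Mt1, Mt2A and Mt3 lie on the minus strand of chromosome 19, with the starts of Mt2A and Mt3 5.7 kb and 23.1 kb from that of Mt1. The 250 bases before each start are printed 5′ to 3′ on the gene's strand. They are chr19:10832976-10833225 for Mt1, chr19:10838709-10838958 for Mt2A and chr19:10856081-10856330 for Mt3. Capitals mark matches to the core letters of the metal response element, TGCACNC or TGCGCNC, on either strand.
Mt1: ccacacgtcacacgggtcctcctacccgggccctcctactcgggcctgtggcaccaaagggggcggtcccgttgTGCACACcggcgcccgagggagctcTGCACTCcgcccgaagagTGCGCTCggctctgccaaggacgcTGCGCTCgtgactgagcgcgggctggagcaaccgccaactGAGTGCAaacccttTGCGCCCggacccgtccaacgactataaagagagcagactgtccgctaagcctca
Mt2A: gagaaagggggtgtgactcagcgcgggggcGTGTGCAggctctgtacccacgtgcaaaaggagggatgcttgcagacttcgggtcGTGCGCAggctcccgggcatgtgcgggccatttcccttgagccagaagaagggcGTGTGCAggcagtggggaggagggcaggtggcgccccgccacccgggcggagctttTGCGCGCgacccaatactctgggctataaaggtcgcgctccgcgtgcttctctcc
Mt3: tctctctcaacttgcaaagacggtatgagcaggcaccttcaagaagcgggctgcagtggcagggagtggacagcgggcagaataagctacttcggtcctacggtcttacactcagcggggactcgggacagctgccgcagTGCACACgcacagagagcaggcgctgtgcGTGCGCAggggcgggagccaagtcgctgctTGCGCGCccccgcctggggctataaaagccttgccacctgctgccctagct
The Mt1 window held 6 matches, 5 of them on the strand of the gene, and at least 6 were found for 0.02% of the 27457 genes with a window of this length. Mt2A held 4, of which 3 were on the opposite strand, and at least 4 were found for 0.28% of genes. Mt3 held 3, and at least 3 were found for 1.25%. A match to these letters is a description of the sequence and does not show binding.

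Of the 10 genes, 7 had a window in the RefSeq table (Slc30a8, Slc30a7 and Slc39a14 did not). Slc39a7 held 4 matches, all of the TGCGCNC form, of which a pair overlapped on opposite strands. Slc30a1 held 2, and Slc30a5 held 2 that overlapped on opposite strands, against 5.13% of genes with at least 2. Slc30a9 and Slc39a6 held none, against 21.23% of genes with at least 1. Of the genes called higher in 3D, Mt1 had the window with most matches, Slc39a6 had a window with none and Slc30a7 had no window. Slc39a7, Slc30a1 and Slc30a5 held matches and were not called. Whether the matches bear on expression was not tested, and the shares over all genes make no allowance for base composition. The letters are not in this window of Slc39a6, which says nothing about other regions.

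**Figure D5:**
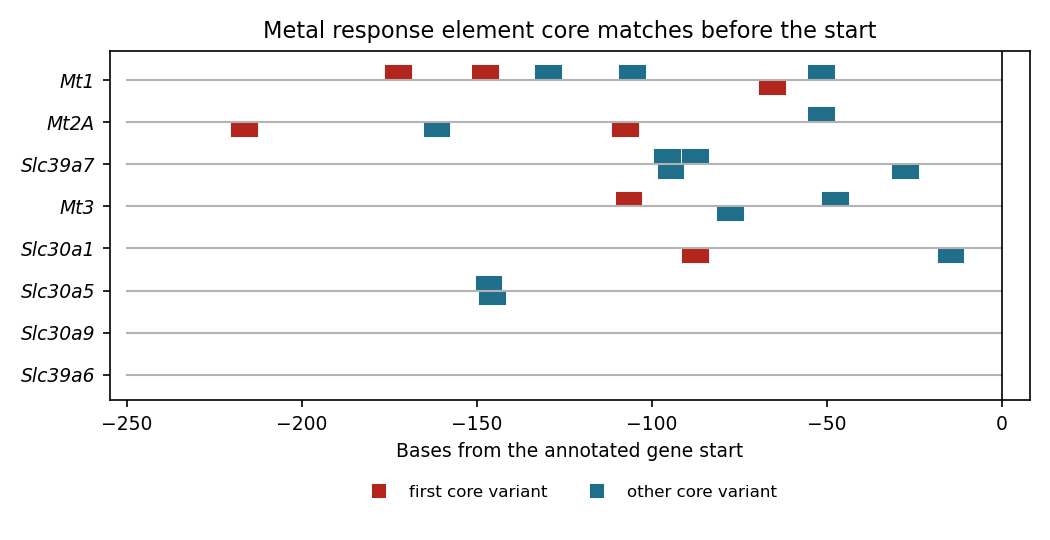
Positions of the core matches in the 250 bases before the annotated start, for 7 of the 10 genes and Mt3, with blocks above the line on the gene's strand and below it on the opposite strand (red TGCACNC, blue TGCGCNC). Mt1 has 6 blocks, while Slc30a9 and Slc39a6 have none.

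The rest of the zinc handling genes were taken from lists of the remaining SLC30 and SLC39 genes, Tmem163, the other metallothioneins and Mtf1. Of these 21 symbols 10 were tested, and 5 of the 10 passed, against 38.0% of all genes. Of the 5, 3 were higher and 2 lower in 3D culture, against 18.5% and 19.5% of all genes. Their median log2 fold change was 0.16. Listed at 0 in all 4 cultures were Slc30a2, Slc39a2 and Slc39a12, besides Mt4 and Mt1m.

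The highest rise was that of Tmem163, a vesicular zinc exporter that is not counted among the SLC30 genes here. It had 9.24 and 11.5 scaled TPM in 2D (10.4 ± 1.62, SD, n = 2) and 23.8 and 23.9 in 3D (23.9 ± 0.134, SD, n = 2). Tmem163 differed 2.19-fold in scaled TPM + 1 (log2 fold change 1.13, standard error 0.107, adjusted p = 0.00409 in limma). Without 3D replicate 1 its adjusted p was 0.0565 in limma. Of all genes tested, 1.60% had a larger absolute log2 fold change.

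Among the other importers, Slc39a11, which encodes the Golgi protein ZIP11, had 21.8 and 23.4 in 2D and 28.5 and 29.2 in 3D (log2 fold change 0.34, adjusted p = 0.0142 in limma). Slc39a9, which encodes ZIP9, had 15.7 and 14.3 in 2D and 17.7 and 18.2 in 3D (log2 fold change 0.24, adjusted p = 0.0468 in limma). Slc39a3, for the plasma membrane importer ZIP3, fell from 9.86 and 10.8 to 8.22 and 7.96 (log2 fold change -0.32, adjusted p = 0.0289 in limma). The groups were separate in each of these 3 genes, against 75.5% of all genes tested. These genes were named because they passed the threshold on the same values, so the separation adds no support. All 3 calls were lost without 3D replicate 1 and without 3D replicate 2, with adjusted p in limma of 0.104 and 0.101 for Slc39a11, 0.181 and 0.212 for Slc39a9, and 0.141 and 0.154 for Slc39a3. Without 2D replicate 2, Slc39a9 (adjusted p = 0.118 in limma) and Slc39a3 (adjusted p = 0.0826 in limma) were also lost, and the Slc39a9 call held in 4 of 11 settings in all, not with a replicate block (adjusted p = 0.0501 in limma).

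Slc30a4, Slc39a1 and Slc39a13 were expressed above 10 TPM and did not pass. Slc30a4, for the vesicular exporter ZnT4, had 13.7 and 11.9 in 2D and 16.8 and 15.2 in 3D (log2 fold change 0.30, adjusted p = 0.0529 in limma). It passed with a replicate block (adjusted p = 0.0211 in limma), at a minimum of 5 TPM (adjusted p = 0.0355 in limma) and without 2D replicate 1 (adjusted p = 0.0368 in limma). For Slc39a1 the difference on the log2 scale was -0.12 (adjusted p = 0.239 by limma), and for Slc39a13 it was 0.15 (adjusted p = 0.100 by limma). Of 7 tested SLC30 genes 1 rose and none fell, and of 9 tested SLC39 genes 3 rose and 1 fell, beside 18.5% of all genes higher and 19.5% lower. The difference between the families was not tested. The summed SLC39 level was 288.0 and 284.6 scaled TPM in 2D and 315.4 and 313.4 in 3D, without overlap. The summed SLC30 level was 585.5 and 540.3 in 2D and 573.5 and 509.7 in 3D, with overlap. Without Slc30a8, the SLC30 sum was 139.6 and 127.8 in 2D and 150.6 and 153.4 in 3D, and the groups were separate. All of these sums were chosen after the values were seen and were not tested. Separate groups were found in 75.5% of all genes tested. Slc39a7, which did not pass, made up 53.7% and 53.1% of the SLC39 sum in 2D and 50.8% and 51.1% in 3D.

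Copper and iron genes were included because metallothioneins also bind copper and ZIP14 also carries iron. Of 13 such genes 12 were tested, and 4 (33.3%) passed, against 38.0% of all genes. All 4 were lower in 3D culture, against 19.5% of all genes, and 3 of them were among the 5 copper genes tested. Calls in the other direction appeared in some settings, with 2 genes higher under the replicate block, 2 without 2D replicate 1 and 1 at a minimum of 5 TPM. The copper transporter gene Slc31a2 had 14.8 and 14.1 scaled TPM in 2D and 9.78 and 9.94 in 3D (log2 fold change -0.51, adjusted p = 0.00665 in limma). Atox1, for the copper chaperone of the secretory pathway, had 161.2 and 187.0 in 2D and 133.4 and 133.3 in 3D (log2 fold change -0.38, adjusted p = 0.0191 in limma). Ccs, for the chaperone that loads superoxide dismutase, had 78.2 and 78.9 in 2D and 56.4 and 62.4 in 3D (log2 fold change -0.40, adjusted p = 0.0105 in limma). Of the 7 iron genes tested, Aco1, the cytosolic aconitase that also acts as an iron regulatory protein, was lower (33.0 and 31.1 against 26.8 and 26.1, adjusted p = 0.0242 in limma). Without 3D replicate 1 none of these 4 calls held, with adjusted p in limma of 0.0759 for Slc31a2, 0.123 for Atox1, 0.0895 for Ccs and 0.132 for Aco1. Without 3D replicate 2 Ccs alone held (adjusted p = 0.0473 in limma), while Slc31a2 had 0.0546, Atox1 0.107 and Aco1 0.147, and Aco1 was also lost without 2D replicate 1 (adjusted p = 0.0509 in limma) and without scaling (adjusted p = 0.0681 in limma).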

How the data were processed

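Polyadenylated RNA of 4 INS-1 samples, 2 per group by their labels, was sequenced as single-end reads from stranded libraries. The authors deposited TPM per transcript, which correct for length and sum to 1000000 per sample. Their processing notes name FastQC 0.11.8, Salmon 1.2 and rn4. The files write decimal commas, so the values were entered as another unit for an automated check, and were read here as the TPM deposited by the authors. TPM keep no read depth, so no counting error is given.

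TPM of 31201 transcripts were summed per symbol, genes with a mean of at least 1 TPM were kept, samples were scaled by TMM without weights (trimming 30% of M and 5% of A), and limma 3.58.1 in R 4.3.3 was run on log2(TPM + 1) with an intensity trend. Benjamini-Hochberg adjustment was over all genes tested (threshold 0.05). The steps were tested on simulated data with far fewer changed genes than were called here, which checks the code and not these calls. The count-based test of the methods could not be repeated on TPM. P-values rest on the spread between cultures labelled as biological replicates, together with limma's pooling of variance over genes.

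The genes and lists were chosen with earlier results of these data known. Named were all 10 genes, listed genes past the threshold, and SLC30 and SLC39 genes of at least 10 TPM, with Slc30a6 and Slc39a10 added as partners of named genes after their values were seen. Transcripts were named for genes with at least 2 above 1 TPM. Promoter windows are RefSeq GRCr8, used for sequence alone. Alternatives were the scaling, filter, pseudocount, trend, replicate block and each culture left out. Identical values above 0 were found between 0 pairs of samples on any transcript.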

Additional observations from a re-analysis of the deposited data

How the results depend on the processing

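The number of genes called changed most when a 3D culture was left out. Without 3D replicate 1 and 3D replicate 2, log2 fold changes were 0.51 and 0.53 for Mt1 and 0.44 and 0.49 for Slc39a6. For Slc30a7 they were 0.43 and 0.31. With all cultures Mt1, Slc39a6 and Slc30a7 had 0.52, 0.46 and 0.37. With each culture left out in turn, which assumes that the lone culture varies like the other group, the genes called ranged from 136 (without 3D replicate 1) to 4515, against 4541 with all cultures, and were 1037 without 3D replicate 2. Of the 10 zinc genes 0 to 4 were called, against 3, of the other zinc genes 1 to 6, against 5, and of the copper and iron genes 0 to 5, against 4. The log2 fold change of Slc30a1 ranged from -0.024 to 0.1878 and that of Slc39a14 from -0.0317 to 0.1337 in these settings, with the negative values without 2D replicate 2. No scaling, median-of-ratios scaling, no filter, a minimum of 5 TPM, a pseudocount of 0.1 and no trend called 4070, 4521, 3739, 4104, 4569 and 4202 genes, and 2 to 4 of the 10 zinc genes, none with a turned sign.

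The deviations of same-numbered cultures had a correlation of -0.006 across genes, so no shared deviation by replicate number was seen. Whether the cultures were set up in pairs is not stated by the labels. With a replicate block 4814 genes were called, with 3 of the 10 zinc genes, 5 of the other zinc genes and 6 of the copper and iron genes, 2 higher and 4 lower.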
